A study of Mus musculus with 2 samples.

Results

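miR-221 and miR-222 are a pair of microRNAs made from neighbouring hairpins on the mouse X chromosome. The 4 mature names of these hairpins (mmu-miR-221-3p, mmu-miR-221-5p, mmu-miR-222-3p and mmu-miR-222-5p, written below without the species prefix) were taken by name, and all 4 were listed in both libraries, out of 1477 miRNA names in all. The libraries are 2 replicates of 1 group: mouse skin keratinocytes, labelled as epithelial cells, that carried an exogenously expressed Dsp-BirA fusion (desmoplakin joined to a biotin ligase) and were biotin treated. Cells were grown in a low-calcium medium called E, lysates were exposed to DNase and RNase, and biotin-carrying proteins were captured on streptavidin beads with the RNA bound to them. The study asked what Argonaute proteins, which carry miRNAs, do at the desmosomal plaque, and named its method CLEAR-CLIP, in which miRNAs are joined to their target RNAs as chimeras. Keratinocytes are known to form stable desmosomes only once calcium is raised, and whether it was raised here is not given in the sources used. Strain, age and sex of the source animals, and whether the replicates were separate cultures, are not given either, so the spread between libraries may be technical. Neither an input nor an unlabelled control library was analysed here, and the values say how much was recovered, not how much it was enriched.

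A miRNA hairpin is cut into a short duplex whose strands come from its 5p and 3p arms. One strand usually stays in Argonaute and guides it to target RNAs mainly through its seed, bases 2 to 8, while the other is discarded. miR-221-3p and miR-222-3p have the same seed and are known to repress Cdkn1b, which encodes the cell-cycle inhibitor p27, and Kit, a receptor tyrosine kinase that in skin marks melanocytes and mast cells.

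The mature sequences (RefSeq, GRCm38.p6) are shown because the shared seed makes the pair a family and because the 5p strand shows how the hairpin pairs. RefSeq entries matched 3 of the 4 names. Each is written 5′ to 3′ with the seed in capitals.
miR-221-3p: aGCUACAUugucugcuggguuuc
miR-222-3p: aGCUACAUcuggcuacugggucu
miR-221-5p: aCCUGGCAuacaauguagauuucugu
The first 8 bases of miR-221-3p and miR-222-3p were the same, and over their 23 bases they had the same base at 11 positions counted from the 5′ end. A target site matching this seed, with an A after it, reads AUGUAGCA. The seed of miR-221-5p was shared by no other mature miRNA in the RefSeq table. Within miR-221-5p, the run ACAAUGUAG is the reverse complement of bases 3 to 11 of miR-221-3p, which covers most of its seed.

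Both hairpins lie on the minus strand of the X chromosome (GRCm38.p6; the submitters' processing notes name mm10), with Mir221 at chrX:19146294-19146388 and Mir222 at chrX:19146893-19146971. They are 504 bases apart. No other gene of the RefSeq table overlaps them: the nearest on the higher-coordinate side is the lncRNA gene Gm14636, 9500 bases away, and the nearest protein-coding gene on that side is Tex13c3. On the other side the nearest gene is the pseudogene Gm5383, 203060 bases away. The hairpins are written below 5′ to 3′, with the mature arms that the reference gives in capitals.
Mir221: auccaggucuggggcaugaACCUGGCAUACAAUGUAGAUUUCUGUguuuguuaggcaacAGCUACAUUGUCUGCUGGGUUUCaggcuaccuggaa
Mir222: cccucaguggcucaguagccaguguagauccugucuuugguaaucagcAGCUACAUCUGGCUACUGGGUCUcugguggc
In the structures predicted by RNAfold, all 7 seed bases of miR-221-3p were paired within its hairpin, against 5 of 7 in miR-222-3p. The first base of the 3p arm was paired in Mir221 and unpaired in Mir222. These folds are predictions from the sequence alone.

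The libraries held 3776893 and 4122955 miRNA counts in replicates 1 and 2, over 1231 and 1232 names. By counting error alone, a name at 0 could have had up to 3 counts, or 0.794 and 0.728 CPM (counts per 1000000 miRNA counts of a library). The libraries differed by more than this: miR-702-5p had 158 and 0 counts, and miR-6913-3p had 0 and 115. Of the names tested between the libraries below, 149 were at 0 in a single library and 853 had counts in both. A count of 0 is therefore not a firm limit on the level of a name. The keratinocyte or epithelial list of 7 miRNAs was present in full and took 10.6% ± 0.0228 of the counts (SD, n = 2), led by miR-141-3p. Markers of other cells took smaller shares, of which that of the endothelial pair was the largest. The mesenchymal list took 0.00249% and 0.0101%, led in mean CPM by miR-214-3p, although miR-199a-3p had more counts in replicate 1. The endothelial pair, led by miR-126a-3p (305.7 ± 57.4 CPM), took 0.0516% and 0.0426%. The blood list took 0.000609% and 0.00119%, led in mean CPM by miR-150-5p, although miR-142-3p had more counts in replicate 1. The melanocyte miRNA miR-211-5p had 0 and 5 counts. No molecular identifiers are mentioned in the labels, and the counts are treated as reads, so all intervals and limits cover counting error only.

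The 3p strands of both hairpins were well represented and the 5p strands were scarce. miR-222-3p was the most abundant of the 4, with 15270 counts in replicate 1 and 18404 in replicate 2. This was 4043 CPM (Wilson 95% interval 3980 to 4108) and 4464 CPM (4400 to 4529), or 4253 ± 297.5 CPM on average (SD, n = 2). It ranked 44 and 42 among all names. miR-221-3p, its seed partner, had 6101 and 7264 counts. Its level was 1615 CPM (1575 to 1656) and 1762 CPM (1722 to 1803), or 1689 ± 103.6 CPM, at ranks 73 and 71. For scale, the most abundant name in the tables, miR-31-5p, stood 33.4-fold above miR-222-3p and 84.2-fold above miR-221-3p in mean CPM.

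The 5p strands, which do not carry the seed of the 3p strands, ranked 403 (miR-222-5p) and 441 (miR-221-5p) by mean CPM. miR-222-5p had 77 and 60 counts, or 20.4 CPM (16.3 to 25.5) and 14.6 CPM (11.3 to 18.7), with a mean of 17.5 ± 4.13 CPM. miR-221-5p had 36 and 80 counts, or 9.53 CPM (6.89 to 13.2) and 19.4 CPM (15.6 to 24.1), with a mean of 14.5 ± 6.98 CPM. The 5p strand of miR-222 was thus the higher of these in replicate 1 and that of miR-221 in replicate 2, and their means differed by less than the SD. The order of the 4 levels was therefore settled at the top, where miR-222-3p lay above miR-221-3p and both lay far above the 5p strands in each library, and was not settled between the 5p strands.

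**Figure D1:**
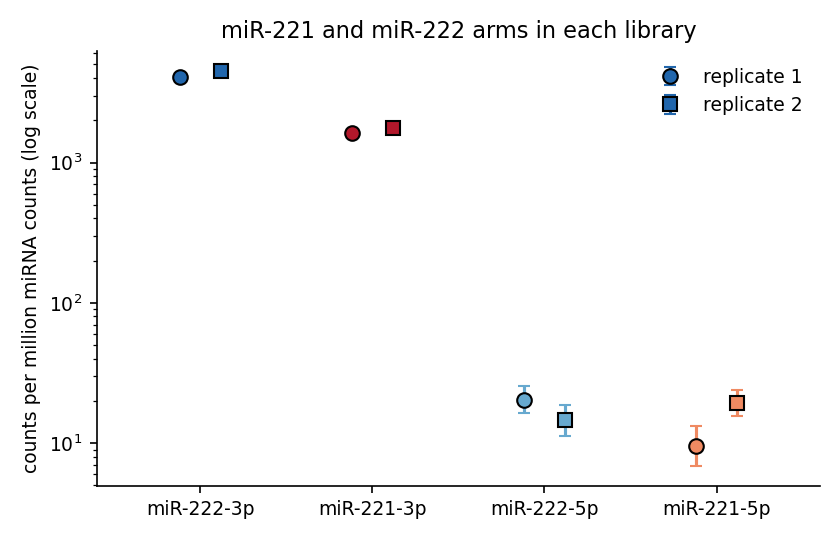
Level of each miR-221 and miR-222 arm in each library, in counts per 1000000 miRNA counts (CPM) on a log axis; circles are replicate 1, squares replicate 2, and bars are Wilson 95% intervals (counting error only, smaller than the symbols for the 3p strands). The 3p strands lie between 1615 and 4464 CPM and the 5p strands between 9.53 and 20.4 CPM, with the 5p strands in opposite order in the 2 libraries.

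The names closest in level to each strand were identified by mean CPM. miR-222-3p lay between the keratinocyte miRNA miR-203-3p (4413 ± 94.1 CPM) and let-7f-5p (3932 ± 328.6 CPM), with miR-106b-5p (4508 ± 84.9 CPM) and miR-30e-5p (3851 ± 68.5 CPM) next in each direction. Of these 4 neighbours, only miR-30e-5p was separated from it by more than the larger SD of the pair. miR-221-3p lay between miR-125b-5p (1740 ± 132.5 CPM) and miR-19a-3p (1640 ± 60.9 CPM), followed by let-7i-5p (1741 ± 165.2 CPM) above and miR-320-3p (1619 ± 57.7 CPM) below, and differed from each by less than the larger SD. Around miR-222-5p were miR-669i, miR-5110, miR-7667-3p and miR-7011-3p, with means from 17.4 to 17.8 CPM. Around miR-221-5p were miR-103-1-5p, miR-7088-5p, miR-7047-3p and miR-466o-3p, with means from 14.4 to 14.6 CPM. None of these 8 was separated from its 5p strand beyond the larger SD.

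miR-222-3p exceeded miR-221-3p by the same factor in both libraries. The ratio was 2.50 in replicate 1 and 2.53 in replicate 2, with a mean of 2.52 ± 0.0217 (SD, n = 2). The 5p strands of the same hairpins had no such fixed ratio: miR-222-5p over miR-221-5p was 2.14 in replicate 1 and 0.750 in replicate 2. They had only 36 to 80 counts. Among names averaging 30 to 100 counts, the log2 ratio of replicate 2 over replicate 1 had an SD of 1.71. It was 0.33 and 0.22 in the classes of miR-221-3p and miR-222-3p. Whether the 5p ratio varied more than such low counts do was not tested. An exact sign-flip test (two-sided) over 2 libraries has a smallest p-value of 0.5, and the ratios are therefore set against their SD only. Ligation and amplification efficiency can differ between sequences, and so can shift any such ratio of reads.

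The ratio was set beside those of other pairs of adjacent miRNA genes, those next to each other on the same strand within 10 kb whose dominant arms each had at least 100 counts per library. There were 24 such pairs, Mir221 and Mir222 included, and in 9 of them the dominant arms were closer in count than miR-221-3p and miR-222-3p. The absolute mean log2 ratio was 1.33 for miR-221-3p and miR-222-3p, next to a median of 1.36 over the pairs, so unequal recovery of this size was ordinary for adjacent genes. The most similar in size were Mir200a with Mir200b (1.34) and Mir23a with Mir27a (1.35). The SD of the log2 ratio between libraries was 0.01 for miR-221-3p and miR-222-3p, with a median of 0.08 over the pairs, and 1 pair had a smaller one. Several pairs share a gene, so the 24 are not independent.

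**Figure D2:**
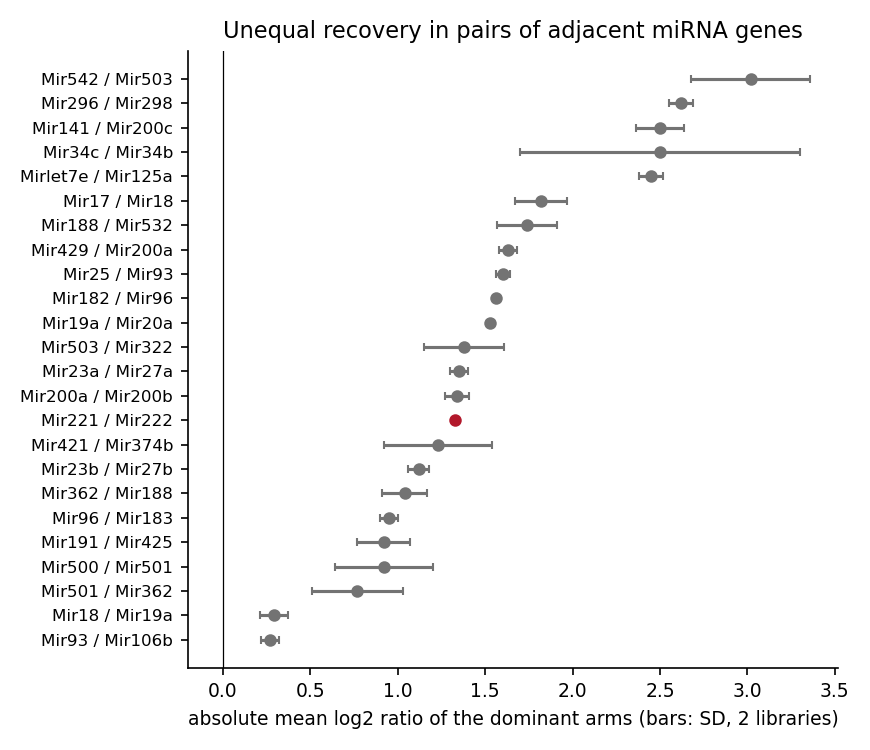
Absolute mean log2 ratio between the dominant arms of 24 pairs of adjacent miRNA genes (points), with the SD over the 2 libraries (bars, hidden by the point where small). Mir221 and Mir222, in red, lie at 1.33, close to the median of 1.36.

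Nearly all reads of both hairpins came from the 3p arm. For miR-221 the 3p share was 99.41% (Wilson 95% interval 99.19% to 99.58%) in the first replicate and 98.91% (98.65% to 99.12%) in the second, a mean of 99.16% ± 0.355 (SD, n = 2). This corresponds to 169.5 and 90.8 reads of the 3p strand for each read of the 5p strand. For miR-222 the 3p share was 99.50% (99.37% to 99.60%) and 99.68% (99.58% to 99.75%), a mean of 99.59% ± 0.125, or 198.3 and 306.7 reads of the 3p strand per 5p read. The share of miR-222 was the higher one in both libraries, but in replicate 1 the intervals of the hairpins overlapped, and the share of miR-221 moved down while that of miR-222 moved up.

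The dominance of the 3p arm was tested per library with an exact binomial test (two-sided) over the 164 hairpins that had both arms listed and 100 counts or more per library, with Benjamini-Hochberg adjustment. Both hairpins passed in both libraries, with a log10 of the adjusted p-value of -1752 and -2020 for miR-221 and of -4410 and -5383 for miR-222. A dominant arm was called in both libraries for 91.5% of the hairpins, and it was the 3p arm in 32.9%, so passing this test is the rule among hairpins. The median share of the dominant arm over the 164 hairpins was 94.6%. It was higher than that of miR-221 in 40 hairpins and higher than that of miR-222 in 24. Among the 59 hairpins with a 3p arm dominant on average, 19 had a larger 3p share than miR-221 and 13 a larger one than miR-222. The 3 hairpins nearest to miR-221 in mean 3p share were miR-466e (99.15% ± 0.522), miR-29a (99.19% ± 0.105) and miR-152 (98.97% ± 0.557). Those nearest to miR-222 were miR-200c (99.59% ± 0.151), miR-193a (99.58% ± 0.103) and miR-200b (99.60% ± 0.277). Each differed from its member by less than its own SD, so the order of hairpins this close in mean share was not settled.

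**Figure D3:**
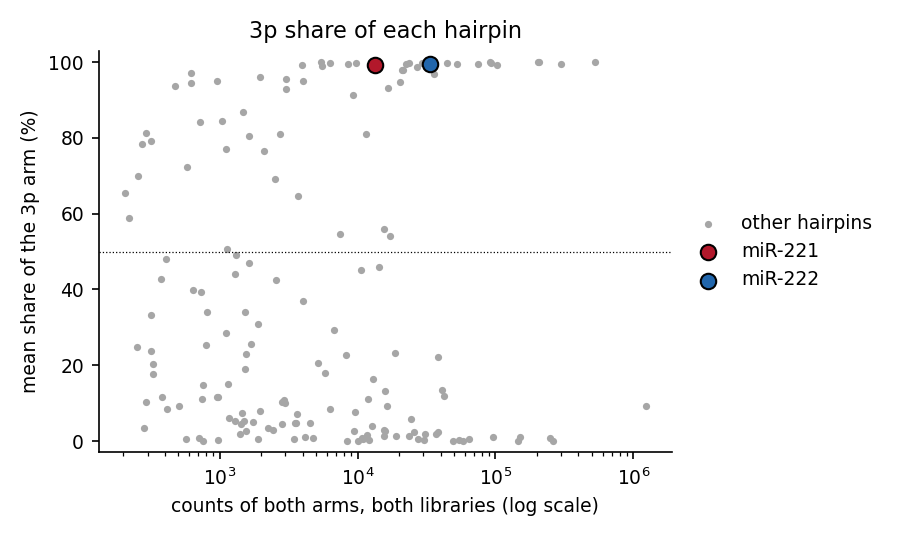
Mean share of the 3p arm (percent, over 2 libraries) against the counts of both arms in both libraries (log axis) for 164 hairpins; the dotted line marks equal arms. miR-221 (99.16%) and miR-222 (99.59%) lie at the top edge, in a band with other abundant hairpins dominated by the 3p arm.

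The libraries were compared name by name with an exact binomial test (two-sided) scaled to the library totals, over the 1002 names averaging 10 counts or more, with Benjamini-Hochberg adjustment. This test asks whether a name differed between the libraries by more than the counting error of reads, and compares no conditions. Of the 4 strands, 3 were called, where 70.6% of all names were called, so the count is near the background. Both 3p strands were higher in replicate 2 by a similar small amount. Expressed as replicate 2 over replicate 1, their log2 ratio was 0.14 for miR-222-3p (exact 95% interval 0.112 to 0.174, adjusted p = 1.96e-18) and 0.13 for miR-221-3p (0.0759 to 0.175, adjusted p = 1.54e-06). Both ratios were smaller than the SD of the log2 ratio of names of like abundance. That SD was 0.22 above a mean of 10000 counts and 0.33 from 1000 to 10000 counts. The median absolute log2 ratio was 0.05 and 0.16 in these classes, so miR-222-3p moved more than the median name of its class and miR-221-3p less. In these classes 81.4% and 73% of names were called. Marker lists of other cells also differed between the libraries. The mesenchymal list had 94 counts in replicate 1 and 417 in replicate 2, a difference that came from miR-214-3p (26 and 364 counts), while miR-199a-3p had 35 and 31, miR-145a-5p 23 and 16, miR-143-3p 10 and 0, and miR-199a-5p 0 and 6. The blood list had 23 and 49 counts and the endothelial pair 1947 and 1758. The part of these in the ratios of the 3p strands was not tested.

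The 5p strands moved in opposite directions. miR-221-5p was called higher in replicate 2 by the exact binomial test, at a log2 ratio of 1.03 (interval 0.441 to 1.64, adjusted p = 5.06e-04). miR-222-5p had a log2 ratio of -0.49 (-0.998 to 0.0194), which did not pass (adjusted p = 0.0814). In the class averaging 30 to 100 counts the SD of the log2 ratio was 1.71, over those counted in both libraries, and 66.4% of names were called, so both 5p strands lay within the ordinary spread at their abundance. All counts were also divided by 20.7 and rounded to whole numbers. The divisor is the average ratio of variance to mean between these libraries over names averaging from 10 to below 300 counts. Both 3p strands lie above that range. None of the 4 strands was then called by the exact binomial test (adjusted p = 0.79 for miR-222-3p and 1 for the others). The 5p strands kept too few counts after division to be called whatever their split, so their result here decides nothing. That divisor was itself taken from differences between the libraries.

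**Figure D4:**
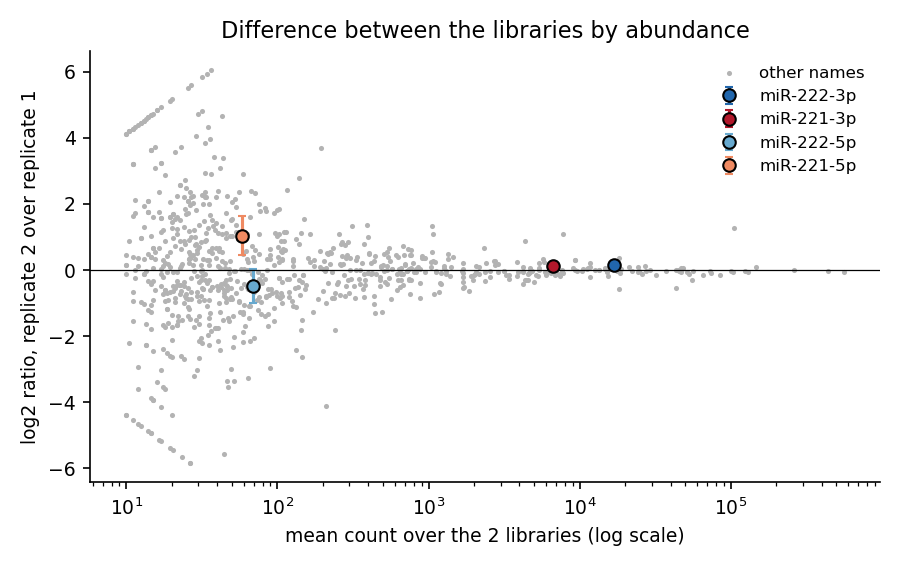
Log2 ratio of replicate 2 over replicate 1 against the mean count (log axis) for the 853 tested names with counts in both libraries (149 tested names at 0 in one library have no finite ratio and are not drawn); bars on the 4 strands are exact 95% intervals. miR-222-3p (0.14) and miR-221-3p (0.13) lie just above 0, and miR-221-5p (1.03) and miR-222-5p (-0.49) lie on opposite sides of it within a wide cloud.

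Since the seed sets most of the pairing, the strands with the seed GCUACAU were also summed. In the RefSeq table this seed is shared by miR-221-3p, miR-222-3p and miR-1928, and miR-1928 was at 0 in both libraries. The family therefore consisted here of the 2 strands and took 0.566% of the miRNA counts in the first library (Wilson 95% interval 0.558% to 0.573%) and 0.623% in the second (0.615% to 0.630%), with a mean of 0.594% ± 0.0401 (SD, n = 2). Sequences were matched for 1231 of the names (83.3%), and among their 1051 seeds this one ranked 28. Directly above it was the seed of miR-96-5p (0.626% ± 0.00959), which differed by less than the larger SD. Directly below was the seed of miR-3473b and miR-3473e (0.542% ± 0.0185), which differed by more.

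Other properties of the strands were described from the same sequences. miR-221-3p, miR-222-3p and miR-221-5p all begin with A. Names beginning with A took 24.1% ± 0.0782 of the counts with a sequence and names beginning with U 64.2% ± 0.586, U being the first base that Argonaute is generally known to favour. Among the 1231 names matched to a sequence, the one closest to miR-221-3p was miR-222-3p, at 5 single-base edits, and the reverse also held. None of these names lay within 3 edits of any of these 3 strands. Names without a sequence could not be compared. Among the 121 listed names encoded only on the X chromosome, miR-222-3p and miR-221-3p ranked 2 and 3, after miR-2137 (14065 ± 2000 CPM), and the strands with a reference entry took 20.7% ± 2.79 of the counts of these names.

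The 2 abundant strands were set beside other miRNAs reported to repress the same targets. The list for Cdkn1b (miR-24-3p, miR-196a-5p, miR-148a-3p and miR-152-3p) took 1.41% ± 0.0417 of the counts, most of it miR-24-3p with 12207 ± 348.2 CPM. miR-221-3p and miR-222-3p together had 0.422 ± 0.0160 times the counts of that list. The list for Kit (miR-34a-5p, miR-193a-3p, miR-193b-3p, miR-494-3p and miR-137-3p) took 0.428% ± 0.00387, led by miR-193a-3p with 2847 ± 60.0 CPM, while miR-137-3p was at 0 in both libraries. miR-221-3p and miR-222-3p together had 1.39 ± 0.0811 times the counts of this list. Between the libraries, 3 of the 4 Cdkn1b-list names were called higher in replicate 2 and 1 lower, and of the 4 Kit-list names tested 3 were higher and 1 lower, where 36.2% of all names were called higher and 34.3% lower. The tables give counts of miRNAs only, so whether Cdkn1b or Kit was bound was not analysed here.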

How the data were processed

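For each library the authors deposited a table without header that pairs mature miRNA names with raw counts, with no normalisation. The submitters' processing notes name cutadapt, Novoalign and mm10, without roles. How chimeric, multiply matching or PCR-copied reads were counted is not given in the sources used here, so counts may exceed molecules. Names absent from a table were set to 0. Of the names, 2 that are not miRNAs were left out (0.00265% and 0.000218% of counts). CPM used the miRNA total of each library. With 1 group there was no contrast for a count model. The tests were exact binomial tests with a threshold of 0.05, run over all names or hairpins (scipy 1.17.1, Python 3.11.15). On simulated data the test of names found 126 of 200 2-fold differences, with 6 false calls. The test of arms found 82 of 82 hairpins given a 3p share of 0.8. The simulated counts held counting error only, so they do not show how the test of names performs on libraries that vary more. TMM factors came from edgeR 4.0.16, size factors from DESeq2 1.42.0, sequences and gene positions from RefSeq and folds from RNAfold 2.7.2. Adjacent pairs left out miRNAs encoded at several loci.

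The members and lists were chosen with earlier results of these data known. Named besides the 4 strands were names with the same seed, the 2 nearest names on each side in level, the 3 hairpins nearest in 3p share, the 2 adjacent pairs nearest in ratio and the leading name of each list. The 2 blood-list names of miR-142 were respelled as in the tables. Alternatives changed the scaling, the total, the count minimums, the counting unit and the libraries used.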

Additional observations from a re-analysis of the deposited data

How the results depend on the processing

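Scaling by TMM factors or DESeq2 size factors left the levels of all 4 strands within their SD and their calls between the libraries as they were. In a total without miR-31-5p, miR-221-3p had 1968 CPM, miR-222-3p 4957 CPM and their seed family a share of 0.693%, and without names numbered 2000 and above the strands had 1865 and 4698 CPM, which follows from the smaller totals. Among names averaging 100 counts or more, 254 of 358 were called between the libraries, against 707 of 1002 in the main run. At minimums of 20 and 1000 counts, 227 of 309 and 97 of 99 hairpins were called, against 150 of 164. The numbers tested differ between these settings, and the share of hairpins called was larger at a higher minimum. Division by the ratio of variance to mean left 16 names called, and miR-221-3p, miR-222-3p and miR-221-5p were no longer called there, at log2 ratios of 0.13, 0.14 and 0.87 (against 0.13, 0.14 and 1.03). Division by a constant cannot turn a ratio, and the shift for miR-221-5p came from rounding the divided counts to whole numbers. The lost calls follow from the smaller counts. The 5p strands, at 36 to 80 counts, could not be tested at a mean of 100. With counts divided by the ratio of variance to mean, the 3p shares were 99.10% for miR-221 and 99.56% for miR-222, and both calls held. Both calls also held at minimums of 20 and 1000 counts, which cannot change the share of a hairpin. Leaving out each library gave 1615 to 1762 CPM for miR-221-3p, 4043 to 4464 for miR-222-3p, 9.53 to 19.4 for miR-221-5p and 14.6 to 20.4 for miR-222-5p. It gave 98.91% to 99.41% and 99.50% to 99.68% for the 3p shares of miR-221 and miR-222, and 0.566% to 0.623% for the family. The ratio of miR-221 to miR-222 was 0.395 to 0.400 for the 3p strands and 0.468 to 1.33 for the 5p strands. No paired analysis was possible because the libraries form a single group.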
